A study of Mus musculus with 3 samples.

Results

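The 10 genes described here are long noncoding RNAs known from the cell nucleus or from brain development: Pantr1, Gas5, Pvt1, Snhg11, Sox2ot, Malat1, Miat, Dlx6os1, Neat1 and Rmst. They were chosen by gene symbol, with earlier results of these data known. All were found among the 39377 genes of the deposited table. Of the genes in that table, 19046 were above 0 in at least 1 library and 13337 reached a mean of 1 FPKM (mapped fragments scaled by transcript length and by library depth). Hippocampus tissue, a mix of cell types, had been taken from C57BL/6 wild-type (WT) mice on postnatal day 14, and the 3 total RNA libraries made up 1 group, with no treated or mutant animals. The labels do not say that the libraries came from separate animals, so a p-value here covers only how these samples vary, and that variation may be technical. With 1 group, the comparisons were between genes inside each library. The sources used here do not give how RNA was selected before sequencing (by poly(A) tail or by removal of ribosomal RNA) or whether counting used strand.

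Long noncoding RNAs are transcripts without a known protein product, and many stay in the nucleus. Malat1 gathers in nuclear speckles, which store splicing factors, and the long form of Neat1 is the scaffold of paraspeckles, another nuclear body. Miat, also called Gomafu, binds splicing factors in neurons, while Gas5 and Snhg11 host small nucleolar RNAs in their introns. Pantr1, Sox2ot, Dlx6os1 and Pvt1 are transcribed beside or across genes of transcription factors, and Rmst was described in human neural cells as a partner of SOX2.

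The mature 3′ end of Malat1 and the ends of both forms of Neat1 are shown because they bear on whether an RNA carries a poly(A) tail, and a stretch of Miat is shown for its repeats. The mature 3′ ends of Malat1 and of long Neat1 are cut by RNase P and protected by an A-rich tract instead of a poly(A) tail, whereas short Neat1 ends after a polyadenylation signal. The sequences are those of GENCODE M21 transcripts on GRCm38, 120 bases each, 5′ to 3′, all on the minus strand. The Malat1 stretch ends with the tract at base 6691, inside the annotated transcript of 6983 bases, whereas the Neat1 stretches are the last bases of their transcripts. Capitals mark the A-rich tract AAAAAGCAAAA, taken as the last 11 bases of long Neat1, in Malat1 (chr19:5795982-5796101) and long Neat1 (chr19:5824708-5824827), the signal AATAAA in short Neat1 (chr19:5842307-5842426) and the repeat TACTAAC in Miat (chr5:112216725-112216844).
Malat1: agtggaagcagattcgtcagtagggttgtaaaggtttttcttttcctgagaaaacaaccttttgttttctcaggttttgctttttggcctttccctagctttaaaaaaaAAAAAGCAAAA
Neat1 long form: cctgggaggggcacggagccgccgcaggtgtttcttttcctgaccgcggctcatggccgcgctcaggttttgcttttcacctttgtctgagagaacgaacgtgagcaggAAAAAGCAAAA
Neat1 short form: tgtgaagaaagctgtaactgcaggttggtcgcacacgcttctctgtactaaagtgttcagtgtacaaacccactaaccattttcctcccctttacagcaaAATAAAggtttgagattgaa
Miat: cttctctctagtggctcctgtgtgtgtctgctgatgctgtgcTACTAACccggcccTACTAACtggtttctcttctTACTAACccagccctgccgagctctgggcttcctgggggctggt

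The motifs were searched on the transcribed strand only, and a match describes letters, not a site in use. AAAAAGCAAAA was present in the last 120 bases of 0.0510% of 137364 transcripts and in 0.0274% of 1931843 windows of 120 bases. Among the transcripts taken for the 10 genes it occurred once each in Malat1, long Neat1 and the longest Snhg11 form. AATAAA was present in the last 120 bases of 29.8% of transcripts. TACTAAC, the branch-point sequence bound by Sf1, occurred 6 times in the Miat transcript, and 3 or more copies were found in 6 of all windows (0.000311%).

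Only Pantr1 and Gas5 were high in these libraries, and the label abundant did not hold for the other 8 genes, none of which was called above the median gene in the test below. Pantr1 and Gas5 together made up 89.4% ± 0.783 of the summed FPKM of the 10 genes (SD, n = 3), Pantr1 with 48.9% ± 1.78 and Gas5 with 40.5% ± 1.54. Malat1, among the highest RNAs of many tissues, made up 1.53% ± 0.857 of the sum. FPKM divide by transcript length, so a long RNA such as Malat1 has more fragments behind a given FPKM than a short one.

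Each gene was first set against the median gene of its library, which stood at 10.52, 10.33 and 10.17 FPKM in libraries 1, 2 and 3. A gene was called when its log2(FPKM + 1) lay more than 1 unit (2-fold) from that median, by limma's treat test with Benjamini-Hochberg adjustment over all 13337 genes and adjusted p under 0.05. Of the 9 genes that reached a mean of 1 FPKM, 2 were called higher, 1 lower and 6 neither. Among all genes tested, 3474 (26.0%) were called higher and 2977 (22.3%) lower, so that the counts for the 9 genes were near the background. The median difference of the 9 genes was 0.07 on the log2 scale, against -0.01 for all genes tested. Rmst did not reach the minimum and has no test.

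Pantr1, a noncoding RNA transcribed beside the neural transcription factor gene Pou3f3, had 292.71, 254.48 and 297.4 FPKM. It lay on chromosome 1 from 42648200 to 42694825 on the minus strand (GRCm38). The 3 libraries were close to each other, and all were far above the library medians. Pantr1 was 4.64 log2 units above the median (SE 0.0962, adjusted p = 5.59e-06) and ranked 369 of the 19046 genes above 0. Its RefSeq-matched transcript is short at 546 bases, and its FPKM corresponded to an estimated 319, 314 and 521 fragments.

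Gas5, a growth-arrest RNA whose introns carry small nucleolar RNAs and which in human cells binds the glucocorticoid receptor, had 238.38, 227.98 and 231.31 FPKM. These were the steadiest values of the 10 genes, with a coefficient of variation of 2.28%, and the SD of its log2 values lay at percentile 2.8 of all genes tested. Gas5 was 4.36 log2 units above the median (SE 0.0848, adjusted p = 4.95e-06) and ranked 436. It lay on chromosome 1 from 161034601 to 161038539 on the plus strand. GENCODE places 10 entries of small nucleolar RNAs inside it, and those found in the table were listed at 0 in every library.

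**Figure D1:**
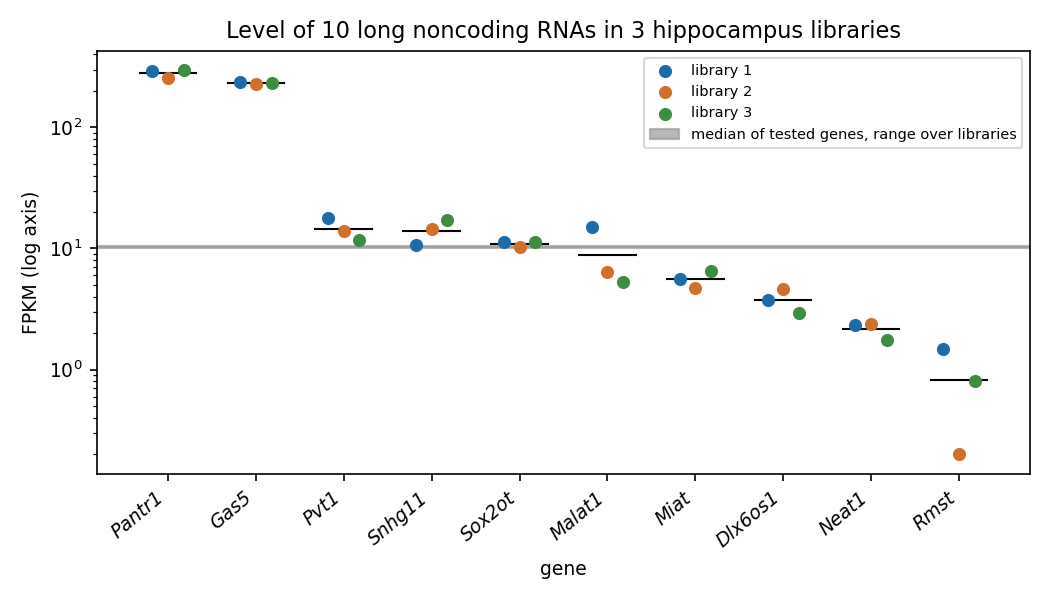
FPKM (log axis) of the 10 long noncoding RNAs in libraries 1, 2 and 3, with points for libraries and a bar for the mean, ordered by mean, and a grey band for the library medians. Pantr1 and Gas5 stood at 227.98 FPKM or more in every library, and the other 8 genes reached at most 17.85 FPKM.

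Pvt1, Snhg11, Sox2ot and Malat1 lay near the library median. Pvt1, the noncoding neighbour of the growth regulator Myc, had 17.85, 13.82 and 11.65 FPKM and lay on chromosome 15 from 62037986 to 62260215 on the plus strand. Snhg11, a brain-expressed small nucleolar RNA host, had 10.69, 14.4 and 17.08 FPKM and lay on chromosome 2 from 158375713 to 158386474 on the plus strand. RefSeq lists Snhg11 as a long noncoding RNA, whereas GENCODE M21 lists it as protein coding. The values of Pvt1 and Snhg11 overlapped, and Pvt1 was the higher in 1 of 3 libraries.

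Sox2ot, whose transcription unit contains the stem cell factor gene Sox2, had 11.24, 10.24 and 11.3 FPKM. The mean was 10.9 ± 0.595 FPKM (SD, n = 3), with little difference between libraries. It lay on chromosome 3 from 34560381 to 34677993 on the plus strand, and the exons of Sox2, on the same strand, share 0 bases with its exons. The log2 difference to the median was 0.43 for Pvt1, 0.39 for Snhg11 and 0.07 for Sox2ot, and none was called.

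Malat1 had 15.04, 6.36 and 5.33 FPKM. Library 1 stood 2.57-fold above the mean of the other 2 libraries, and the SD of its log2 values was at percentile 96.7 of all genes tested. Malat1, on chromosome 19 from 5795690 to 5802672 (minus strand, 1 exon), ranked 7233 of 19046 and was 0.32 log2 units below the median (log2 difference -0.32, SE 0.270), which was not called. At the estimated depth, and taking fragments as independent, the 95% exact Poisson interval was 13.6 to 16.6 FPKM in library 1. It was 5.46 to 7.36 in library 2 and 4.64 to 6.10 in library 3, both below that of library 1. These intervals cover counting error only. Gm37376 on the opposite strand shares 453 exon bases with Malat1, so without strand their reads there cannot be told apart.

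Malat1 alone of the 9 tested genes was at least 2 times as high in library 1 as in each other library, which 209 of 13337 genes (1.57%) were. Other measures differed in library 1 too. The 4 choroid plexus markers were all lowest there, with summed levels of 397, 1082 and 1310 FPKM in libraries 1, 2 and 3, mostly from Ttr, the thyroid hormone carrier of that tissue (391.81, 1070.95 and 1295.71 FPKM). Of the 10 nuclear speckle proteins 7 were highest in library 1, as were 7 of 11 paraspeckle proteins, 4 of the 10 long noncoding RNAs and 4869 of 13337 genes tested. The part of these differences in the Malat1 value was not tested.

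**Figure D2:**
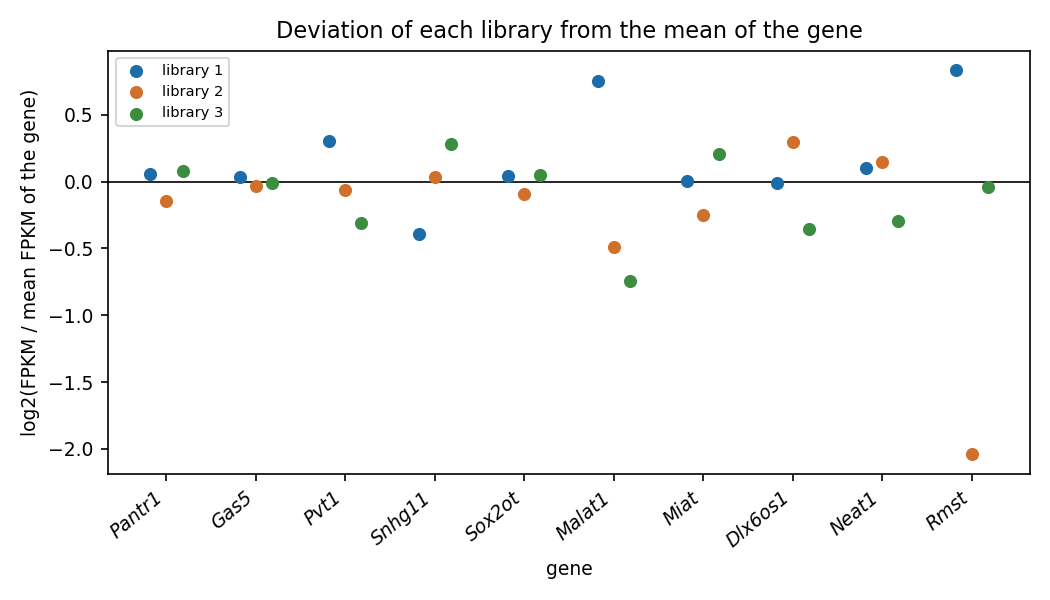
Deviation of each library from the mean of the gene, as log2(FPKM / mean FPKM), for the 10 long noncoding RNAs, with 1 coloured point per library. Malat1 stood high in library 1, Gas5 hardly varied, and the low point of Rmst in library 2 rests on about 2 fragments.

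The remaining genes lay below the median. Miat had 5.64, 4.73 and 6.47 FPKM, with a log2 difference to the median of -0.79, and lay on chromosome 5 from 112213228 to 112228948 on the minus strand. The opposite strand carries Gm26953, which shares 2260 exon bases with Miat, so without strand its reads and those of Miat cannot be told apart. Dlx6os1, also called Evf, a regulator of the Dlx5 and Dlx6 genes in mouse GABAergic precursors, had 3.76, 4.65 and 2.96 FPKM. It was 1.26 log2 units below the median and missed the threshold (log2 difference -1.26, SE 0.124, adjusted p = 0.0906).

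Neat1 had 2.33, 2.4 and 1.77 FPKM and was the only gene of the 9 called lower (log2 difference -1.85, SE 0.0999, adjusted p = 0.000773). Without a minimum level, which lowers the median gene, the difference was -0.81 and was not called. Neat1 was below the median in all 3 libraries and lay on chromosome 19 from 5824708 to 5845480 on the minus strand, close to Malat1. Rmst, on chromosome 10 from 92081746 to 92165178 on the minus strand, had 1.47, 0.2 and 0.8 FPKM. Its estimated fragments were 13.1, 2.03 and 11.5, so that library 2 was under 0.296 FPKM, the level of 3 fragments. Gm26700 on the opposite strand shares 1955 exon bases with Rmst, and the microRNA genes Mir1251 and Mir135a-2 inside it were listed at 0.

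The order of the 10 genes was then examined between neighbours, by a moderated limma test on log2(FPKM + 1). The null was no difference, with adjustment over all genes tested against the same gene. The order itself came from the means of these 3 libraries, so the pairs were chosen on the values tested. The p-values are therefore no independent support for the order. Of 9 neighbouring pairs 8 could be tested and 3 were called different. Pantr1 was above Gas5 in 3 of 3 libraries (ratio 1.21 ± 0.0862, SD, n = 3), but the difference of 0.27 log2 units was not called (limma adjusted p = 0.0619), where 98.9% of all genes differed from Pantr1. It was called when only genes with a mean of at least 5 FPKM were tested (limma adjusted p = 0.0447), and without each library in turn the adjusted p was between 0.0517 and 0.322. Gas5 was 16.6 ± 3.25 times Pvt1 (3.94 log2 units, limma adjusted p = 1.31e-06), and 98.8% of all genes differed from Gas5. This gap was the break in the order.

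The 4 steps that followed were not called different. Pvt1 over Snhg11 was 1.10 ± 0.509 (limma adjusted p = 0.890; 79.3% of all genes differed from Pvt1), and Snhg11 over Sox2ot was 1.29 ± 0.298 (limma adjusted p = 0.282; background 77.7%). Sox2ot over Malat1 was 1.49 ± 0.694 (limma adjusted p = 0.221; background 85.9%), and Malat1 over Miat was 1.61 ± 0.950 (limma adjusted p = 0.381; background 60.2%). Without library 1, in which Malat1 was high, Sox2ot and Malat1 were called different (0.78 log2 units, limma adjusted p = 0.00608). All tests against 1 gene share the error of that gene, and for Pvt1, Snhg11, Malat1 and Dlx6os1 limma also pooled the spread of all genes completely. The p-values against these genes can therefore be too small, those against Malat1 and Pvt1 above all. A second p, with the spread taken from the fit against the median, is given where such a call was made, and it has the same limit.

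Miat was above Dlx6os1 in 3 of 3 libraries, at a ratio of 1.57 ± 0.587 (0.47 log2 units, limma adjusted p = 0.0285; 83.2% of all genes differed from Miat). The call was lost with the other spread (adjusted p = 0.0816), and without library 1 (0.155) or library 3 (0.272). Dlx6os1 was above Neat1 in 3 of 3 libraries, at 1.74 ± 0.173 (0.59 log2 units, limma adjusted p = 0.0202, and 0.00894 with the other spread; background 80.8%). That call was lost without library 1 (0.0870) or library 2 (0.0789). Neat1 was above Rmst in every library, which was not tested.

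FPKM divide fragments by transcript length, so the order by FPKM and the order by fragments behind each value differ where transcripts differ in length. Depth was estimated from the steps of low FPKM at 3680000, 4170000 and 5920000 fragments, and each FPKM was turned into fragments with the annotated length of a transcript. Only transcripts matched to RefSeq were taken (for Pantr1, 1 of 12 in GENCODE), except for Gas5 and Snhg11, which had no match. Other GENCODE lengths of the matched genes were not tried. Malat1, at 6983 bases, then had 373, 179 and 212 fragments and Miat, at 8758 bases, had 177, 168 and 326. Malat1 was 2nd or 4th by fragments, against 6th by FPKM, depending on whether the shortest or the longest transcript was taken for each gene. These numbers show that the low FPKM of Malat1 and Miat rested on well over 100 fragments per library.

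Neat1 could not be placed so firmly. Its FPKM corresponded to 23.6, 27.6 and 28.9 fragments if the 3004-base form was the one counted and to 176, 205 and 215 if it was the 20771-base form. The table gives 1 value per gene, so the share of the forms cannot be told apart. Gas5 had no transcript matched to RefSeq, and its lengths of 346 to 2556 bases put it 5th or 1st by fragments, at 84.2 or 2023 fragments in library 1. Snhg11 had no match either, and its lengths of 687 to 5864 bases put it 8th or 3rd, at 17.2 or 221 fragments in library 1.

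**Figure D3:**
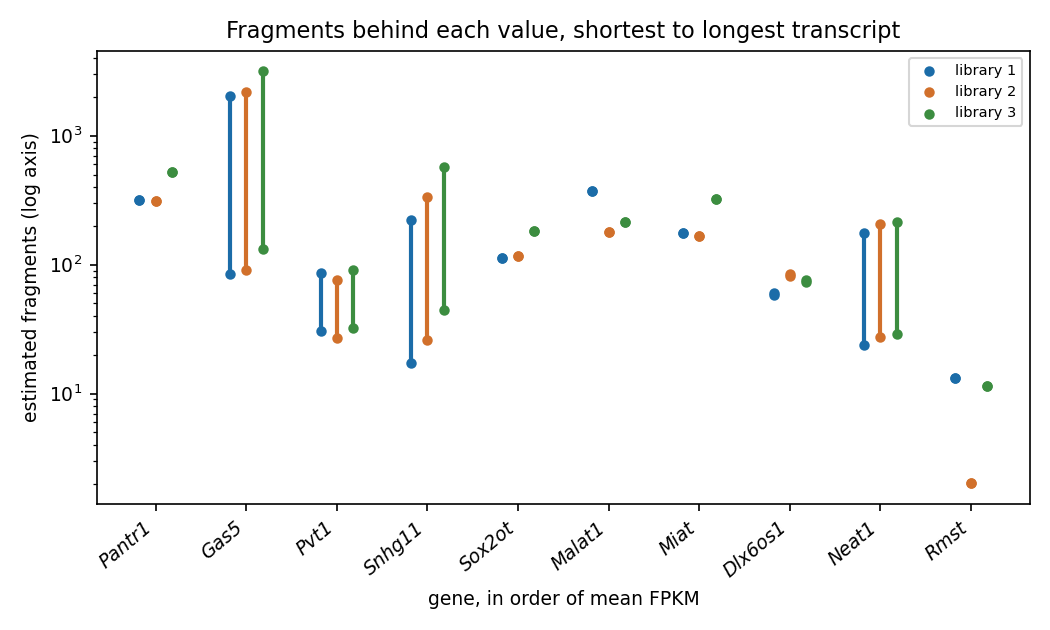
Estimated fragments per library (log axis) for the 10 long noncoding RNAs, with a line joining the values for the shortest and the longest transcript taken for each gene, which coincide where 1 transcript was used. Malat1 had 373 fragments in library 1, against 179 and 212 in libraries 2 and 3, and Rmst had about 2 in library 2.

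Members of the group were next compared with genes of their own loci or pathways, in 11 pairs. Of these 10 could be tested, and 9 were called different, which is near the background, since between 60.2% and 98.9% of all genes differed from the same long noncoding RNAs. Against the library median, 0 of the 8 genes of transcription factors in these pairs were called higher and 2 lower, with a median log2 difference of -0.35, beside 26.0% higher and 22.3% lower among all genes. Pantr1 was 22.4 ± 1.95 times Pou3f3, a transcription factor of upper cortical and hippocampal neurons, which had 12.47, 12.61 and 12.59 FPKM (4.38 log2 units, limma adjusted p = 4.08e-08). Pantr1 was above Pou3f3 in every library, and the 2 genes lie side by side. Gas5 was 21.3 ± 1.72 times the glucocorticoid receptor gene Nr3c1, which had 11.35, 11.53 and 9.98 FPKM (4.29 log2 units, limma adjusted p = 4.00e-07).

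Pvt1 was 2.70 ± 1.03 times Myc, which had 5.27, 4.32 and 7.69 FPKM (1.20 log2 units, limma adjusted p = 4.27e-06, and 0.00657 with the other spread). Sox2ot was below Sox2 in 3 of 3 libraries, at 0.473 ± 0.0930 of its level (log2 difference -1.03, limma adjusted p = 0.000843), where Sox2 had 28.11, 23.24 and 19.57 FPKM. Sox2 also marks radial glia and astrocytes, and in bulk tissue fewer cells of a type and less RNA per cell cannot be told apart. Rmst stood at 0.0339 ± 0.0227 of the Sox2 level, without a test.

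Malat1 was above its neighbour Neat1 in every library, at ratios of 6.45, 2.65 and 3.01 in libraries 1, 2 and 3 (1.52 log2 units, limma adjusted p = 0.00203, and 0.00662 with the other spread). The ratio was largest in library 1, where Malat1 was high and Neat1 was not. None of the calls for Pvt1 and Myc, Sox2ot and Sox2, or Malat1 and Neat1 held against a null of a 2-fold difference.

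Dlx6os1 was compared with the Dlx genes, which direct the formation of GABAergic interneurons, and with Gad1, the enzyme that makes GABA. It was below Dlx1 in 3 of 3 libraries, at 0.301 ± 0.137 of its level (log2 difference -1.58, limma adjusted p = 1.64e-10, and 0.00184 with the other spread), where Dlx1 had 15.55, 10.16 and 14.56 FPKM. Against Gad1 it stood at 0.0717 ± 0.00513 (log2 difference -3.48, limma adjusted p = 1.24e-45, and 1.41e-05 with the other spread), with Gad1 at 51.6, 61 and 44.75 FPKM. Dlx6os1 and Gad1 were both highest in library 2 and both lowest in library 3. The Poisson intervals of Dlx6os1 overlapped, at 2.86 to 4.86, 3.69 to 5.78 and 2.32 to 3.72 FPKM (shortest transcript). The 7 GABAergic markers summed to 1000.1, 1166 and 944 FPKM in libraries 1, 2 and 3, mostly from Sst (674.46, 807.65 and 654.22 FPKM). But 3 of them, Gad2, Slc32a1 and Lhx6, were highest in library 1 and lowest in library 2. The part of the GABAergic markers in the Dlx6os1 values was not tested.

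Dlx6os1 was above Dlx2 (2.06, 1.82 and 1.21 FPKM), at a ratio of 2.28 ± 0.394 (0.83 log2 units, limma adjusted p = 0.000978, and 0.00318 with the other spread). It was above Dlx5 (1.85, 2.04 and 2.02 FPKM), at a ratio of 1.93 ± 0.417 (0.68 log2 units, limma adjusted p = 0.00741, and 0.0102 with the other spread), a call lost without library 1 (0.0779) or library 2 (0.0531). The difference to Dlx6, which lies on the opposite strand inside the Dlx6os1 span with 0 shared exon bases, was not called (log2 difference -0.07, limma adjusted p = 0.800). Dlx6 had 4.89, 4.5 and 2.79 FPKM, values that overlap those of Dlx6os1. The calls against Dlx2 and Dlx5 did not hold against a null of a 2-fold difference.

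**Figure D4:**
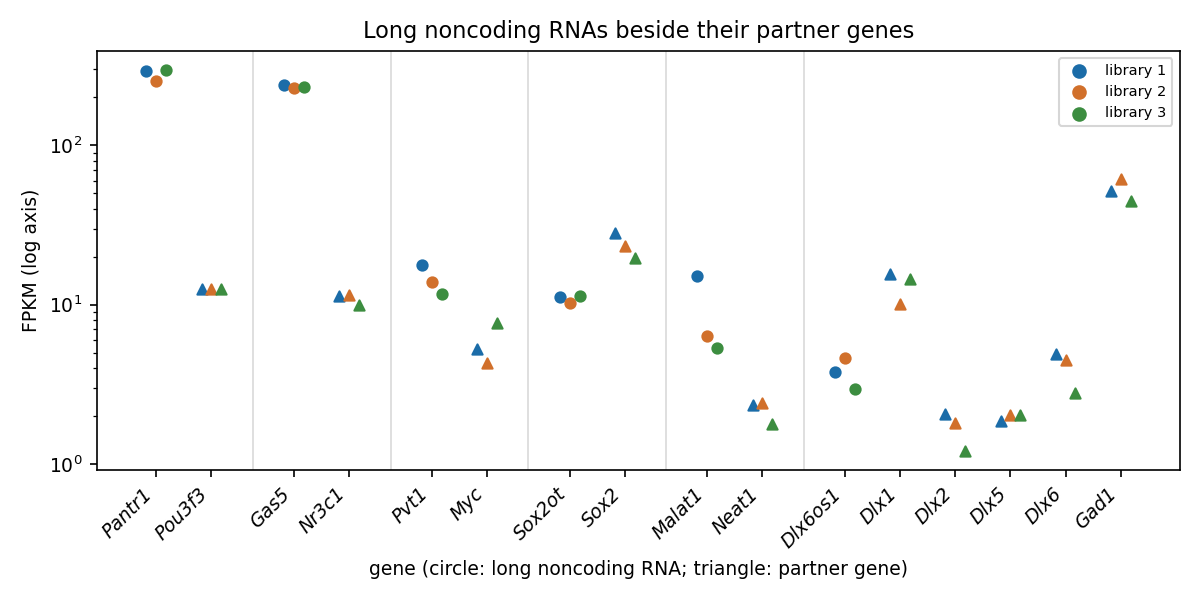
FPKM (log axis) of the long noncoding RNAs and of the genes paired with them, with points for libraries 1, 2 and 3. Pantr1 and Gas5 stood far above Pou3f3 and Nr3c1, whereas Dlx6os1 stood below Dlx1 and Gad1 and overlapped Dlx6.

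The proteins that bind or process these RNAs were described as lists, by counts of genes called against the library median. These lists, and those of other RNAs below, were chosen with earlier results of these data known. Their counts are therefore descriptions and no test of the lists. Among all genes tested 26.0% were called higher and 22.3% lower. Of 10 nuclear speckle proteins 7 were called higher and 0 lower, with a median log2 difference of 2.22, against -0.01 for all genes tested. Srsf5 averaged 241.7 ± 68.7 FPKM, Srsf3 97.0 ± 9.05 and Srsf2 74.6 ± 8.95 (SD, n = 3), all splicing factors. Srsf5 was 314.9, 178.52 and 231.8 FPKM, thus highest in library 1, like Malat1. Malat1, at 8.91 ± 5.33 FPKM, was below the lowest mean of this list on the FPKM scale.

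Of 11 paraspeckle proteins 5 were called higher and 0 lower, beside 26.0% and 22.3% among all genes, with a median log2 difference of 1.26. Hnrnpk averaged 194 ± 13.6 FPKM and Tardbp 66.8 ± 3.62, both RNA-binding proteins. Neat1, at 2.17 ± 0.345 FPKM, was below every protein of the list on the FPKM scale. The Miat-binding factors Celf3 (65.3 ± 3.90 FPKM), Srsf1 (40.8 ± 2.46) and Sf1 (32.7 ± 2.58) were all called higher, 3 of 3 tested, and Srsf1 is also one of the speckle proteins. Of the 5 symbols on this list, Qk and Qki were not found in the deposited table.

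Genes that cut the 3′ end of Malat1 were 4 higher and 2 lower of 11, with a median log2 difference of 0.89. These counts were near the 26.0% higher and 22.3% lower among all genes. Pop5 averaged 94.3 ± 6.80 FPKM, Rpp21 48.3 ± 7.27 and Pop4 34.9 ± 1.75, all protein subunits of RNase P. The RNA subunit of RNase P, Rpph1, had 110.26, 29.65 and 58.48 FPKM and was highest in library 1, as Malat1 was. It was named after its values were seen. Of the 11 genes above, 5 were highest in library 1, beside 4869 of 13337 genes tested. Pop5 (87.69, 101.27 and 93.87 FPKM) and Rpp21 (40.35, 50.14 and 54.55 FPKM) were lowest there. The part of RNase P in the Malat1 value was not tested. Of 8 nonsense-mediated decay genes, whose pathway degrades spliced Gas5, 0 were called higher and 3 lower, with a median of -0.79. The 3 called lower were Smg1 (log2 difference -1.53), Smg6 (-1.31) and Upf2 (-1.26). The highest of the list were Upf3a, with 21.22, 21.56 and 20.3 FPKM, and Smg5, which averaged 13.0 ± 1.79 FPKM. Both lay above the median (0.96 and 0.30) and were not called.

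Other hosts of small nucleolar RNAs were 8 higher and 1 lower of 15, with a median log2 difference of 1.33. Snhg6 averaged 179 ± 16.3 FPKM, Snhg8 126 ± 12.6 and Snhg12 64.0 ± 2.48, so Gas5 at 233 ± 5.31 FPKM had a higher mean than each of the 15. Snhg11 at 14.1 ± 3.21 FPKM had a mean below the median of the list. Further long noncoding RNAs were 4 higher and 5 lower of 20 tested, with a median of -0.84, counts near the 26.0% and 22.3% among all genes. Rian, an imprinted RNA of neurons, averaged 976 ± 95.9 FPKM, above Pantr1, and 6330403K07Rik averaged 140 ± 3.76. Bc1, a short dendritic RNA, was at 124074 and 179412 FPKM in libraries 1 and 2 and listed at 0 in library 3, where the 0 may be a failed estimate.

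RNAs without a poly(A) tail were present in these libraries. Of 6 such genes 5 were tested and all 5 were called higher, beside 26.0% among all genes, with a median log2 difference of 4.32. The fragments behind these values were not estimated. For an RNA little longer than the 250 bases taken off each length, a few fragments can give a high FPKM. Rn7s1 and Rn7s2, copies of the signal recognition particle RNA with identical values in every library, averaged 3378 ± 99.4 FPKM, and Rn7sk, a regulator of transcription elongation, had 304.71, 172.95 and 217.38 FPKM. Whether RNA selection lowered Malat1 or long Neat1 was not tested.

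**Figure D5:**
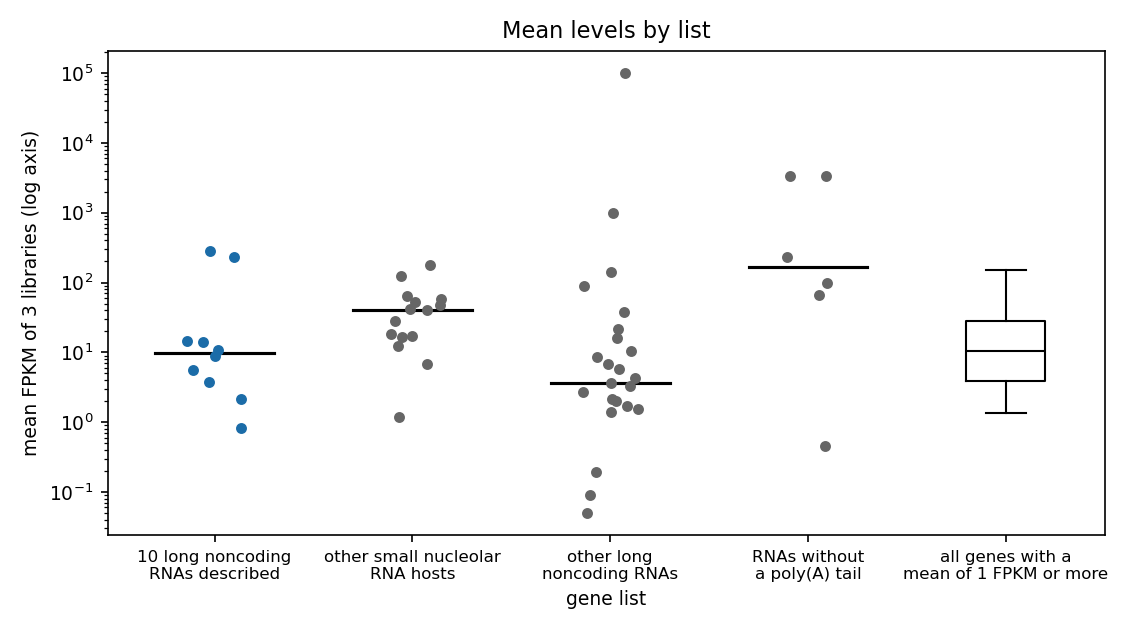
Mean FPKM over the 3 libraries (log axis), with 1 point per gene and a bar for the list median, for the 10 long noncoding RNAs (blue) and 3 other lists, beside a box for all genes tested (median and quartiles, whiskers at percentiles 5 and 95). The median was 9.92 FPKM for the 10 long noncoding RNAs, 40.5 for other small nucleolar RNA hosts, 3.61 for other long noncoding RNAs (2 of them, listed at 0, are not drawn) and 10.5 for all genes tested.

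The tissue label was checked against marker genes. Slc17a7, the vesicular glutamate transporter of excitatory neurons, had 448.33, 414.84 and 491.79 FPKM, and Camk2a, a kinase of excitatory synapses, had 715.44, 862.95 and 881.71. Of the 6 listed markers of hippocampal excitatory neurons 3 were called higher and 0 lower, beside 26.0% and 22.3% among all genes. The 3 not called were Wfs1 (log2 difference 0.66), Prox1 (-0.07) and Zbtb20 (-0.66), the last below the median in all 3 libraries. Of 3 striatal markers, Rgs9 had 4.63, 3.2 and 2.73 FPKM, Adora2a 4.26, 3.54 and 1.29, and Drd2 0.59, 0.83 and 0.66. The 3 thalamic markers summed to 13.5, 14.93 and 17.18 FPKM, mostly from Prkcd (10.7, 12.74 and 14.03 FPKM). The striatal markers were thus low but not at 0. Tcf7l2 and Lef1, of the thalamic list, were called lower than the median gene. Prkcd was above it in 3 of 3 libraries (log2 difference 0.24, not called). The part of both neighbouring regions in the values above was not tested.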

How the data were processed

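Total RNA of hippocampus was sequenced as paired reads of 150 bases, per the labels' protocols. The authors deposited FPKM per gene, 1 column per library, per the file headers. The submitters' processing notes name Bowtie2 as a tool and GRCm38 (mm10) as the genome. Counting tool, annotation, versions, RNA selection and strand were not given in the sources used here. FPKM were used as deposited. Genes at a mean of at least 1 FPKM were tested on log2(FPKM + 1), which makes differences between low genes look smaller, with limma 3.58.1 in R 4.3.3, and calls were made at adjusted p under 0.05. Both kinds of fit were tested on simulated data, where log2 differences were recovered, but p-values against the most variable genes (Malat1 and Pvt1) came out too small with either spread.

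Gene coordinates came from RefSeq, and transcripts from GENCODE M21, both on GRCm38. Depth was estimated from single-transcript genes of at least 800 bases, taking 250 bases off each length. Values then lay within 0.15 of whole fragments in 92.6%, 91.9% and 91.0% of cases in libraries 1, 2 and 3 (30% if evenly spread). The settings were chosen on these same values. The labels mention no molecular identifiers, so fragments need not be independent molecules.

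The members and lists were chosen with earlier results of these data known. Named genes were the members, the genes paired with them, the 3 highest genes of each list and genes inside member spans; some of these are not reported here. Tables and figures were made in Python 3.11.15 (pandas 2.3.3, numpy 2.4.6, matplotlib 3.10.9, scipy 1.17.1).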

Additional observations from a re-analysis of the deposited data

How the results depend on the processing

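Pantr1 and Gas5 were called higher than the library median under every alternative. The count of the long noncoding RNAs called lower was 2 with a pseudocount of 0.1 FPKM, 2 against the library mean, 3 with a null of no difference, and 1 to 2 when each library was left out in turn. Without a minimum level 4 were called higher and 0 lower, among 5955 genes higher and 6032 lower. With a minimum mean of 5 FPKM 2189 genes were higher and 1091 lower, and with a null of no difference 5757 and 5739. Against a 2-fold null, 1 neighbouring pair was called different. The count of the 10 genes with a highest library at least 2 times the lowest was 2 (Malat1 and Rmst), and 1 to 2 when each library was left out in turn: 1 without library 1 and 1 without library 2.

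Neat1 was not called without a minimum level (-0.81). Signs turned with the median used: without a minimum Malat1 was at 0.72 and Miat at 0.25 log2 units, with a minimum of 5 FPKM Pvt1 was at -0.36, Snhg11 at -0.40 and Sox2ot at -0.72, and against the library mean Sox2ot was at -0.16. These changes follow from the genes that set the median or mean. With each library left out in turn, Pvt1 minus Snhg11 ranged over -0.29 to 0.32 and Dlx6os1 minus Dlx6 over -0.13 to 0.051. Both turned sign without library 1 (-0.29 and 0.051), and neither was called. Dlx6os1 was called lower than the median with a pseudocount of 0.1 FPKM (adjusted p = 0.0396), without library 2 (0.0451) and against the library mean (0.0124), by limma. Miat was called lower with a minimum of 5 FPKM (-1.57, 0.00314), and Pvt1 (1.46, 0.0165) and Snhg11 (1.42, 0.0283) higher without a minimum. With a null of no difference Miat (0.00146) and Dlx6os1 (0.000335) were called lower and Pvt1 (0.0264) higher. Pantr1 minus Gas5 was called with a minimum of 5 FPKM (0.0447).

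No paired analysis was possible because the libraries form 1 group. The spread taken from the fit against the median, and the order by fragments, were chosen after seeing the data. Depth of 3680000 to 5920000 fragments limits Rmst most.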
